A study of Homo sapiens with 23 samples.

Results

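The data cover 10 genes that encode chemokines, CXCL1, CXCL2, CXCL3, CXCL5, CXCL8, CXCL10, CXCL12, CCL2, CCL20 and CX3CL1. They were taken by symbol, through their NCBI Gene IDs, from a table of 21658 genes, and all 10 were present. The table holds RNA-seq values of 4 established human ovarian cancer cell lines, OV-90, Kuramochi, OVSAHO and EFO-21, each as a parental culture and as a prexasertib-resistant culture. Prexasertib is an inhibitor of the checkpoint kinase CHK1, and resistance was reached by raising its concentration over a long period in culture. Each of the 8 groups had 3 libraries, labelled as biological replicates, except parental OV-90, which had 2. Whether a resistant line was a single clone, whether its libraries came from separate escalations and whether the drug was present at harvest are not given in the sources used here.

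Chemokines are small secreted proteins that bind G protein-coupled receptors and steer the movement of leukocytes and of some tumour cells. CXCL1, CXCL2, CXCL3, CXCL5 and CXCL8 act on CXCR2 and attract neutrophils, and their genes are classic targets of NF-kappaB, a transcription factor family activated by inflammatory cytokines. CXCL10 is induced by interferons and attracts T cells through CXCR3, CXCL12 binds CXCR4 and the atypical receptor ACKR3, CCL2 attracts monocytes through CCR2, CCL20 binds CCR6, and CX3CL1 is a membrane-anchored chemokine that binds CX3CR1. In ovarian cancer CXCL1 and CXCL8 are known as autocrine growth and angiogenic factors.

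The question was how far the lines differ in these genes at baseline, and which of them differ between resistant and parental cultures of a line. The expression values, deposited after quantile normalization, were taken to be on a log2 scale, so a difference of 1 is read as a 2-fold difference. They are not stated to be per gene length, and levels are therefore compared between libraries and not between genes. The 10th percentile of a library lay between 1.70 and 1.87, and values at or below it are called the bottom. A group mean printed below as under 1.70 is at the bottom, also where the text does not repeat it. The median over all genes was 6.01. No read counts were available, so the depth of the libraries is unknown. Differences were tested with limma over all genes, and a gene was called changed at a Benjamini-Hochberg adjusted p under 0.05 with at least a 2-fold difference.

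Libraries grouped by their labels. Profiles of the same group correlated at 0.952 to 0.988, resistant with parental libraries of a line at 0.889 to 0.960, and libraries of different lines at 0.624 to 0.808 (Pearson's r across genes). All 23 libraries were closest to a library of their own group. Of the 4 Mullerian markers, PAX8, WT1, MUC16 and SOX17, 0 lay above the median in parental OV-90, against 3 in Kuramochi, 4 in OVSAHO and 2 in EFO-21. Epithelial markers were above the median in every parental line, with 4 or 5 of 6. Summed over 4 Mullerian markers, the log2 values of parental OV-90 were 9.05 to 9.96, against 27.4 to 36.2 in the other lines.

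The promoters are shown because 5 of the 10 genes, CXCL1, CXCL2, CXCL3, CXCL5 and CXCL8, lie in the same cluster on chromosome 4, with other genes between them, and carry the same short stretch close to their start. A window from 250 bases before to 50 after the start was given by RefSeq for 8 of the 10 genes, and each matched the GRCh37 genome exactly and once. CCL2 and CX3CL1 had no entry. The 9-base stretch GGAATTTCC, the core of a binding sequence of NF-kappaB, was found on either strand in 6 of the 8 promoters and in 0.461% of 35116 promoters of the same length. It began at position -78 from the start of CXCL1, -77 of CXCL2, -78 of CXCL3, -90 of CXCL5 and -91 of CXCL8. In CXCL10 it stood on the opposite strand at -176. The windows below run 5′ to 3′ along each gene, with this stretch, or its reverse complement, in capitals. Positions are counted from the start that RefSeq gives. For CXCL3, CXCL8 and CCL20 it lies inside the longer gene span of the GENCODE annotation, whose coordinates are given with each gene. The windows of CXCL3 and CCL20 therefore fall within that span, and the window of CXCL8 ends just before it.

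CXCL1, chr4:74735002-74735070, plus strand: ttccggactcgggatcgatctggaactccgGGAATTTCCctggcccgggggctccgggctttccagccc
CXCL2, chr4:74964951-74965019, minus strand: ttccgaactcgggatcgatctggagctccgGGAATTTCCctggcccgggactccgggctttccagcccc
CXCL3, chr4:74904446-74904514, minus strand: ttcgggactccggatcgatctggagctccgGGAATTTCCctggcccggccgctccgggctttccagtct
CXCL5, chr4:74864446-74864514, minus strand: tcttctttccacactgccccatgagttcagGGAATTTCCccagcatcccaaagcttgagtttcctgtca
CXCL8, chr4:74606165-74606233, plus strand: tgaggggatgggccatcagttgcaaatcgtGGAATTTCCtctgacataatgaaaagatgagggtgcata

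CXCL1, CXCL2 and CXCL3 shared a longer run of 23 bases around it, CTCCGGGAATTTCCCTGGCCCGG, and CXCL5 shared 11 bases with them. The CXCL10 window also holds, in capitals, the interferon-response pattern GAAANNGAA, which stood in 3 of the 8 promoters and in 8.11% of all promoters, and which in CXCL10 lies apart from the NF-kappaB matches. In CCL20 the capitals mark a match to the broader NF-kappaB consensus on the opposite strand. That consensus was found in 6 of the 8 promoters and in 11.3% of all promoters, and in CXCL1, CXCL2, CXCL3, CXCL5 and CXCL10 it overlaps the 9-base stretch. CXCL10 had a second place with the consensus, at -122.

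CXCL10, chr4:76944810-76944879, minus strand: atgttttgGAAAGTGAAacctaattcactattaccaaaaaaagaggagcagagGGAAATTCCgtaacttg
CCL20, chr2:228678449-228678518, plus strand: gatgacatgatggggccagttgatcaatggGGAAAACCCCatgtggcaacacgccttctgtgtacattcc

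These matches describe letters only. Binding was not measured, and the changes reported next differed between genes that carry the same stretch. CXCL12 carried neither the 9-base stretch nor the consensus in its window.

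At baseline each line had a chemokine profile of its own. Over the 6 pairs of parental lines, 50 of 60 member tests passed the threshold, and the number of members per pair was 7 to 9 of 10. The background was high. The share of all genes called was 47% for OV-90 against Kuramochi, 48.1% for OV-90 against OVSAHO and 50.2% for OV-90 against EFO-21. It was 37.6% for Kuramochi against OVSAHO, 41.3% for Kuramochi against EFO-21 and 44.2% for OVSAHO against EFO-21. CXCL1, CXCL8 and CCL20 differed in 6 of the 6 pairs, and CXCL10 in 2.

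EFO-21 stood above the other lines in CXCL1, CXCL5 and CXCL8, which attract neutrophils. Mean log2 values of CXCL1 in the parental lines were 12.74 in EFO-21, 8.60 in OV-90, 7.03 in Kuramochi and 5.21 in OVSAHO, and all neighbours in that order differed. CXCL8 kept that order, with 11.90, 9.03, 7.42 and 4.23. CXCL5 was present at 12.77 in EFO-21, at 2.25 in OV-90, and at the bottom in Kuramochi (1.05) and OVSAHO (0.75). The CXCL5 difference of OVSAHO minus EFO-21 was -12.02 on the log2 scale (SE 0.269, adjusted p = 4.11e-10), against a value at the bottom and so not a measured fold.

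CXCL2 and CXCL3 had another order. CXCL2 had mean log2 values of 6.45 in EFO-21 and 6.43 in OV-90, which did not differ by the test (difference of OV-90 minus EFO-21 -0.02, 95% interval -0.52 to 0.48), then 4.80 in Kuramochi and 3.42 in OVSAHO. CXCL3 was highest in OV-90, at 8.39, followed by EFO-21 at 6.69, OVSAHO at 4.29 and Kuramochi at 3.68. The last pair of CXCL3 levels did not pass the test (adjusted p = 0.0697). CXCL1, CXCL2 and CXCL3 are close paralogs, and of all 50-base words of their annotated transcripts, 4.57% of those of CXCL1, 13.4% of CXCL2 and 6.01% of CXCL3 also occur in another of the 10 genes. How reads shared between them were assigned is not given in the sources used here.

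The other ligands marked out other lines. CCL20 was highest in OV-90, at a mean log2 value of 10.55, followed by Kuramochi at 6.66, EFO-21 at 5.06 and OVSAHO at 2.62. CCL2 showed the reverse for OV-90, with a value of 2.23 near the bottom, against 10.50 in Kuramochi, 9.12 in EFO-21 and 8.41 in OVSAHO. The OVSAHO and EFO-21 levels of CCL2 differed by under 2-fold (log2 difference of OVSAHO minus EFO-21 -0.72, adjusted p = 0.000972). CX3CL1 followed the order EFO-21 (9.46), OVSAHO (7.25), Kuramochi (6.69) and OV-90 (4.24), with OVSAHO and Kuramochi under 2-fold apart. CXCL12 had mean values of 4.92 in Kuramochi, 3.92 in OVSAHO, 3.27 in EFO-21 and 1.90 in OV-90, and OVSAHO and EFO-21 were neighbours that did not differ by 2-fold. CXCL10 had mean values of 4.72 in OVSAHO, 3.78 in OV-90, 3.34 in EFO-21 and 3.10 in Kuramochi, and the 2 called pairs set OVSAHO against Kuramochi and against EFO-21.

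**Figure D1:**
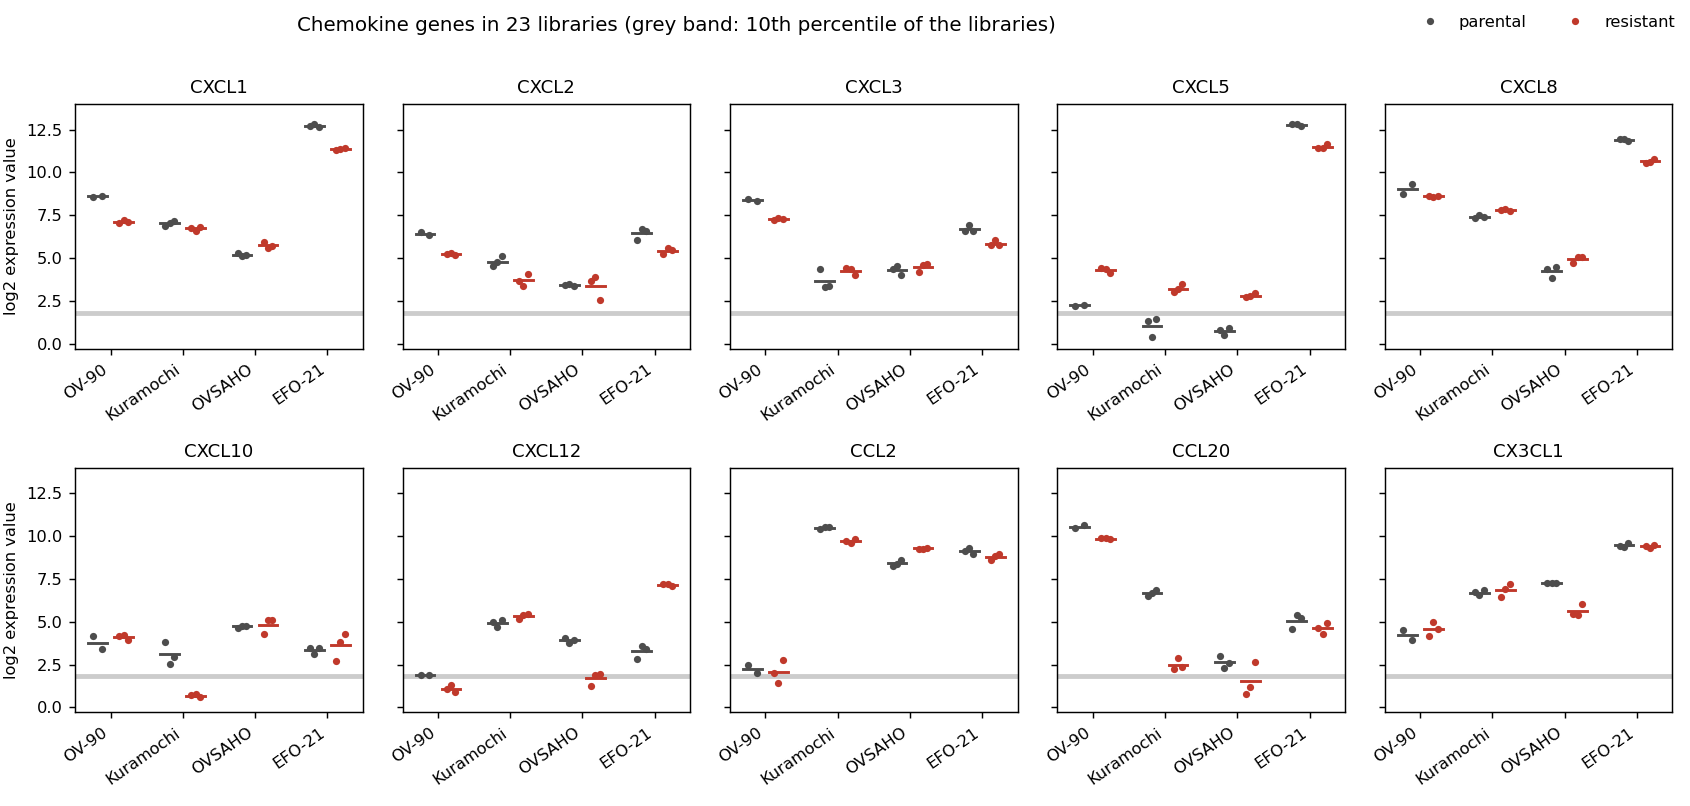
Each panel shows the log2 expression value (vertical axis) of a chemokine gene in the 23 libraries, by line on the horizontal axis, with parental libraries in dark grey and resistant libraries in red. Points are libraries, short lines are group means and the light grey band is the 10th percentile of the libraries. EFO-21 has the highest values of CXCL1, CXCL5 and CXCL8, and OV-90 has the highest CCL20 and a CCL2 value close to the band.

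In the resistant cultures 4 members changed in OV-90, 4 in Kuramochi, 3 in OVSAHO and 5 in EFO-21. The set of genes and the directions differed by line. In OV-90 CXCL1, CXCL2 and CXCL3 were lower and CXCL5 higher. In Kuramochi CXCL2, CXCL10 and CCL20 were lower and CXCL5 higher. In OVSAHO CXCL12 and CX3CL1 were lower and CXCL5 higher, and in EFO-21 CXCL1, CXCL2, CXCL5 and CXCL8 were lower and CXCL12 higher.

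Among all genes, the same threshold called 16.1% in OV-90, 22.5% in Kuramochi, 7.76% in OVSAHO and 14.3% in EFO-21. By direction, 9.50% were higher and 6.56% lower in OV-90, and 11.8% and 10.6% in Kuramochi. In OVSAHO 3.93% were higher and 3.83% lower, and in EFO-21 7.11% and 7.15%. Counts over the gene lists below are to be read beside these shares. The median log2 change of the 10 members was -0.56 in OV-90, -0.07 in Kuramochi, 0.15 in OVSAHO and -0.65 in EFO-21. The median over all genes was -0.06, -0.02, 0.00 and 0.01 in the same order of lines. In bulk samples of this kind, fewer cells that make a transcript and less of it per cell cannot be told apart.

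**Figure D2:**
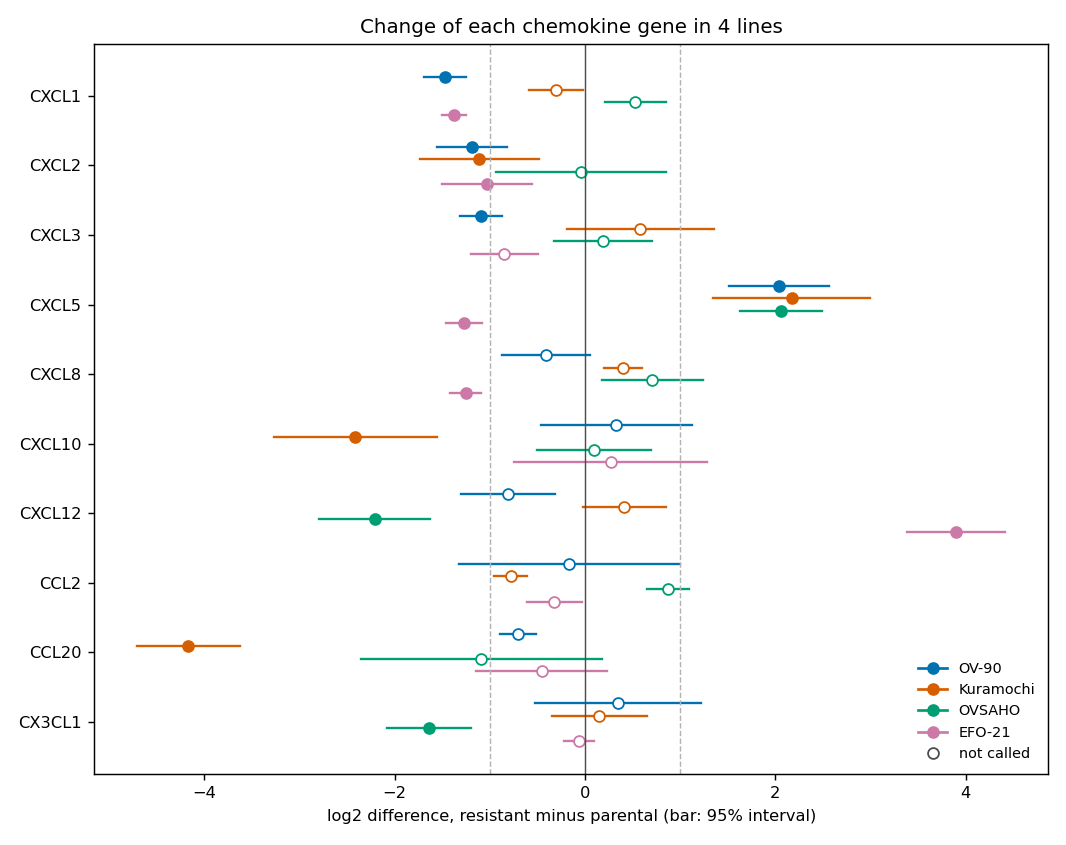
Points give the log2 difference of resistant minus parental libraries (horizontal axis) for each chemokine gene (vertical axis) in each line (colour), with bars for the 95% interval of the limma fit. Filled points passed an adjusted p under 0.05 with at least a 2-fold difference, marked by dashed lines. CXCL5 is filled to the right in OV-90, Kuramochi and OVSAHO and to the left in EFO-21, and the farthest points are CCL20 in Kuramochi (-4.16) and CXCL12 in EFO-21 (3.90).

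CXCL5, which attracts neutrophils, changed in all 4 lines, upward in 3 and downward in EFO-21. In the 3 lines with a rise, every resistant value stayed under the median over all genes, 6.01. The gene lies at chr4:74861359-74864394 (GRCh37, minus strand), and an annotated lncRNA on the other strand overlaps its first part. In EFO-21 the parental libraries had log2 values of 12.81, 12.81 and 12.71 and the resistant libraries 11.44, 11.40 and 11.66. The groups were separate, with a difference of -1.27 (SE 0.0765, adjusted p = 0.000102), or 2.42-fold lower.

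In OV-90 the CXCL5 values were 2.21 and 2.29 in the parental libraries and 4.40, 4.35 and 4.11 in the resistant ones. Every resistant library was above both parental libraries, by a mean of 2.04 (SE 0.202, adjusted p = 0.00952). The parental OV-90 values, at percentiles 12.1 and 12.4 of their libraries, were near the bottom. Kuramochi went from 1.33, 0.36 and 1.46 to 2.99, 3.20 and 3.47, and OVSAHO from 0.82, 0.52 and 0.92 to 2.70, 2.79 and 2.95. In both of these lines all parental values were at the bottom, so the differences of 2.17 and 2.06 on the log2 scale are not measured folds. With values under the 10th percentile raised to it they were 1.45 and 1.01, both still called.

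CXCL1, a growth-promoting and neutrophil-attracting chemokine, fell in OV-90 and in EFO-21. It lies at chr4:74735110-74737025 (GRCh37, plus strand). OV-90 had log2 values of 8.58 and 8.62 in parental and 7.05, 7.22 and 7.12 in resistant libraries. The difference was -1.47 (SE 0.0857, adjusted p = 0.00424), or 2.76-fold lower. EFO-21 had 12.71, 12.84 and 12.67 in parental and 11.32, 11.37 and 11.40 in resistant libraries, a difference of -1.38 (SE 0.0524, adjusted p = 2.69e-05). The CXCL1 changes of OV-90 and EFO-21 differed by -0.09 (SE 0.143, adjusted p = 0.624).

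In Kuramochi CXCL1 had mean log2 values of 7.03 and 6.73 and did not pass the test (adjusted p = 0.0799). In OVSAHO its resistant libraries, at 5.93, 5.57 and 5.72, were all above the parental ones, at 5.32, 5.10 and 5.20. That difference of 0.53 had an adjusted p of 0.0254 and was under 2-fold. The CXCL1 change in OVSAHO differed from that in EFO-21 by 1.91 (SE 0.135, adjusted p = 5.68e-09).

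CXCL2 (chr4:74962757-74964913, GRCh37, minus strand), another CXCR2 ligand, fell in OV-90, Kuramochi and EFO-21 by a little over 2-fold. OV-90 had log2 values of 6.52 and 6.33 in parental and 5.21, 5.32 and 5.18 in resistant libraries, a difference of -1.19 (adjusted p = 0.0124). Kuramochi went from 4.52, 4.77 and 5.10 to 3.65, 3.37 and 4.05, a difference of -1.11 (adjusted p = 0.0136). EFO-21 went from 6.06, 6.70 and 6.58 to 5.21, 5.58 and 5.46, a difference of -1.03 (adjusted p = 0.00681). The groups did not overlap in any of these 3 lines.

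In OVSAHO the CXCL2 groups overlapped, with 3.41, 3.50 and 3.36 in parental and 3.69, 3.90 and 2.57 in resistant libraries. The CXCL2 calls rested on single libraries. In Kuramochi the difference was -0.95 without parental library 6 or without resistant library 17, under 2-fold. In EFO-21 it was -0.90 without parental library 11, -0.96 without parental library 12 and -0.92 without resistant library 22.

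CXCL3 (chr4:74902306-74904524, GRCh37, minus strand), the third of these paralogs, fell in OV-90. Its log2 values were 8.45 and 8.33 in parental and 7.24, 7.36 and 7.29 in resistant libraries, a difference of -1.09 (SE 0.0845, adjusted p = 0.00629). In EFO-21 the parental libraries had 6.58, 6.94 and 6.55 and the resistant ones 5.74, 6.04 and 5.75, all lower. The difference of -0.85 passed the p threshold (adjusted p = 0.0044) but was 1.80-fold. Kuramochi, with 4.33, 3.33 and 3.38 against 4.39, 4.36 and 4.04, and OVSAHO, with means of 4.29 and 4.48, had overlapping groups.

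Parental OV-90 had only 2 libraries, and some of its calls were lost when a resistant library was left out, with differences of about the same size. Without resistant library 13 the adjusted p was 0.0757 for CXCL2, 0.0515 for CXCL3 and 0.0612 for CXCL5, with log2 differences of -1.18, -1.06 and 1.98. Without library 14 it was 0.0644 for CXCL2 and 0.0552 for CXCL5, with differences of -1.23 and 2.01. Without library 15 it was 0.0744 for CXCL2, 0.051 for CXCL3 and 0.0536 for CXCL5, with differences of -1.16, -1.09 and 2.13. The call of CXCL1 held in each of these 3 fits, and that of CXCL3 held without library 14.

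CXCL8, also known as interleukin-8, lies at chr4:74606236-74609433 (GRCh37, plus strand) and was called in EFO-21 only among the 4 lines. There it went from log2 values of 11.93, 11.96 and 11.82 to 10.54, 10.64 and 10.77, a difference of -1.25 (SE 0.0676, adjusted p = 7.35e-05), or 2.38-fold lower. In Kuramochi all resistant libraries (7.82, 7.89 and 7.75) were above the parental ones (7.35, 7.54 and 7.37). That difference of 0.40 had an adjusted p of 0.00835 and was 1.32-fold. OVSAHO had 4.37, 3.83 and 4.48 in parental and 4.72, 5.05 and 5.04 in resistant libraries, with a difference of 0.71 (adjusted p = 0.051). OV-90 had 8.74 and 9.31 against 8.65, 8.59 and 8.62 (adjusted p = 0.127).

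The EFO-21 change of CXCL8 differed from that of each other line. Set against EFO-21, the difference of changes was 0.84 for OV-90 (adjusted p = 0.0042), 1.65 for Kuramochi (adjusted p = 2.51e-06) and 1.96 for OVSAHO (adjusted p = 8.36e-07). In EFO-21 CXCL1, CXCL2, CXCL5 and CXCL8, 4 of the 10 members, were called lower, against 7.15% of all genes. CXCL3, the other CXCR2 ligand among the members, was 1.80-fold lower there and was not called.

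CXCL5, CXCL8, CXCL1, CXCL3 and CXCL2 lie within 358.7 kb of chromosome 4, and some genes nearby had larger changes. Within 500 kb on either side, 17 annotated genes were measured, 5 of them members. Of the other 12, OV-90 had 3 higher and 1 lower, Kuramochi 1 higher and 4 lower, OVSAHO 3 higher and 3 lower, and EFO-21 1 higher and 4 lower. EREG, which encodes the EGF receptor ligand epiregulin, was called in all 4 lines with the same directions as CXCL5. Its mean log2 value went from 13.66 to 5.11 in EFO-21, a difference of -8.55 (SE 0.168, adjusted p = 8.45e-06). In the other lines EREG went from 0.20 to 4.07 in OV-90, from 0.02 to 3.70 in Kuramochi and from 1.29 to 4.04 in OVSAHO, with most parental values at the bottom.

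CXCL6, a further CXCR2 ligand in the cluster, went from a mean log2 value of 11.26 to 7.42 in EFO-21 (adjusted p = 8.45e-06) and from 6.30 to 3.65 in OV-90 (adjusted p = 0.0176). In OVSAHO it went from 0.51, at the bottom, to 2.10. AREG, the neighbouring amphiregulin gene, had a log2 change of -5.81 in EFO-21 and of -1.18 in OVSAHO. PPBP, which encodes a platelet chemokine, went from 5.44 to 0.02 in OVSAHO and, though called lower in EFO-21, was at the bottom in all libraries there.

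**Figure D3:**
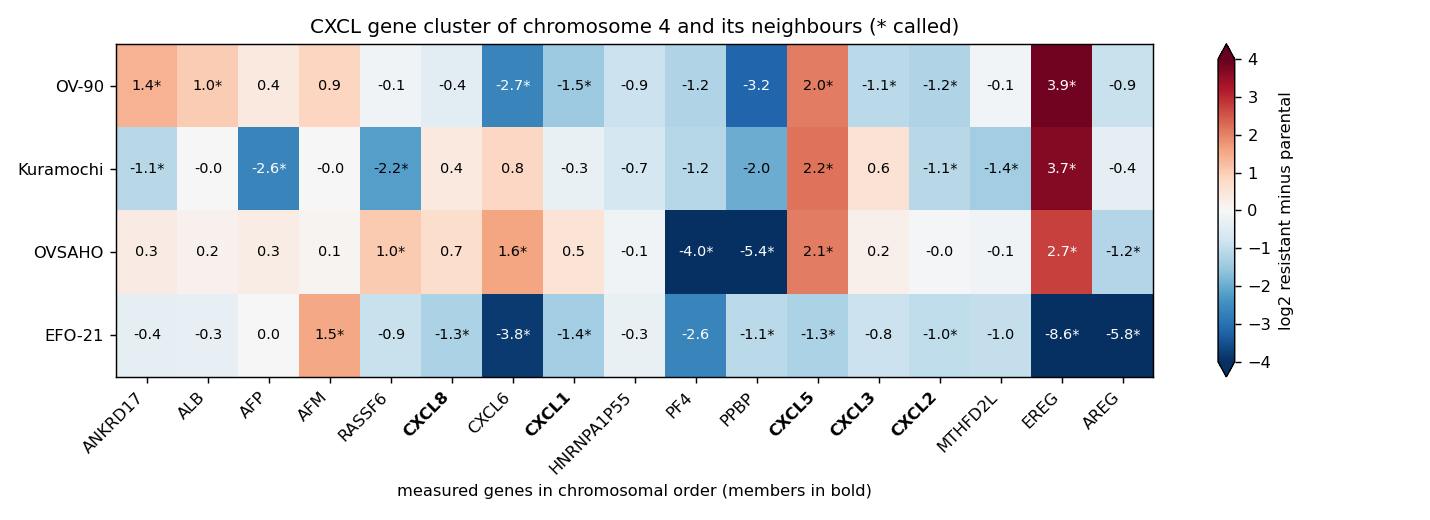
The map shows the log2 difference of resistant minus parental libraries (colour, limited to 4 in either direction, and printed value) for the 17 measured genes around the CXCL cluster of chromosome 4, in chromosomal order from left to right, with the 4 lines as rows. Stars mark called genes and bold names the members. The CXCL5 and EREG columns are positive in OV-90, Kuramochi and OVSAHO and negative in EFO-21, and all 8 of these values are starred.

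CXCL10 (chr4:76942271-76944650, GRCh37, minus strand), the interferon-inducible T cell attractant, fell in Kuramochi. Its log2 values went from 3.84, 2.52 and 2.93 in parental to 0.72, 0.76 and 0.58 in resistant libraries, which were all at the bottom. The difference was -2.41 (SE 0.353, adjusted p = 0.00213), and -1.27 with low values raised to the 10th percentile (adjusted p = 0.0192). In the other lines the groups overlapped. Means of CXCL10 were 3.78 and 4.11 in OV-90, 4.72 and 4.82 in OVSAHO, and 3.34 and 3.61 in EFO-21, where the resistant libraries spread from 2.72 to 4.29.

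Interferon pathway genes were counted beside CXCL10. Of all genes, 11.8% were called higher and 10.6% lower in Kuramochi, and the shares in the other lines are given above. Of the 17 measured interferon pathway genes, 3 were higher and 3 lower in Kuramochi, and 0 and 1 in OV-90. In OVSAHO 1 was higher and 3 lower, and in EFO-21 3 and 0. The median log2 change of the 17 was 0.22 in Kuramochi, -0.31 in OV-90, -0.26 in OVSAHO and 0.35 in EFO-21. OAS1, an antiviral enzyme, was called in 3 lines, with mean log2 values of 3.51 and 6.29 in Kuramochi, 4.57 and 2.85 in OVSAHO, and 8.13 and 9.66 in EFO-21. RSAD2, another antiviral gene, went from a mean log2 value of 2.27 to 0.99 in Kuramochi and from 3.07 to 1.91 in OVSAHO. TAP1, a peptide transporter for antigen presentation, had a log2 change of 1.19 in Kuramochi and of -1.50 in OV-90 (adjusted p = 0.00983).

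CXCL12, whose gene lies at chr10:44865613-44881941 (GRCh37, minus strand), had the largest spread of change among the members. In EFO-21 its log2 values went from 2.82, 3.56 and 3.43 to 7.21, 7.20 and 7.10. The resistant libraries were all far above the parental ones, by 3.90 (SE 0.210, adjusted p = 7.31e-05), or 14.9-fold. In OVSAHO the values went from 4.05, 3.75 and 3.95 to 1.27, 1.89 and 1.96, with 1 library at the bottom. That difference was -2.21 (SE 0.238, adjusted p = 0.00166), and the changes of OVSAHO and EFO-21 differed by -6.11 (SE 0.299, adjusted p = 4.55e-11).

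In OV-90 CXCL12 had log2 values of 1.91 and 1.90 in parental and 1.04, 1.33 and 0.92 in resistant libraries, the latter at the bottom. The difference of -0.80 had an adjusted p of 0.0349 and was under 2-fold, and it was -0.09 with low values raised. In Kuramochi all resistant libraries (5.13, 5.40 and 5.48) were above the parental ones (4.97, 4.69 and 5.11), with a difference of 0.42 (adjusted p = 0.103).

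The receptors of CXCL12 were measured in the same libraries. CXCR4, its signalling receptor, went from a mean log2 value of 5.17 to 1.89 in EFO-21, a difference of -3.28 (SE 0.540, adjusted p = 0.00399). In OV-90 it went from 5.04 to 7.94 (adjusted p = 0.00978). ACKR3, which binds CXCL12 and clears it, went from 4.57 to 7.49 in EFO-21 (adjusted p = 0.000437) and from 5.74 to 7.17 in OV-90 (adjusted p = 0.00796). In Kuramochi ACKR3 went from 6.21 to 1.67, at the bottom. That difference of -4.54 (SE 0.220, adjusted p = 3.06e-05) is therefore not a measured fold. CXCR4 was at 6.52 and 6.76 in Kuramochi. In OVSAHO neither receptor was called, at 3.90 and 3.40 for CXCR4 and 3.67 and 4.04 for ACKR3.

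In resistant EFO-21, CXCL12 and ACKR3 were higher and CXCR4 lower, whereas in resistant OV-90 both receptors were higher with CXCL12 at the bottom. In resistant Kuramochi CXCL12 was not called and ACKR3 was lower.

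**Figure D4:**
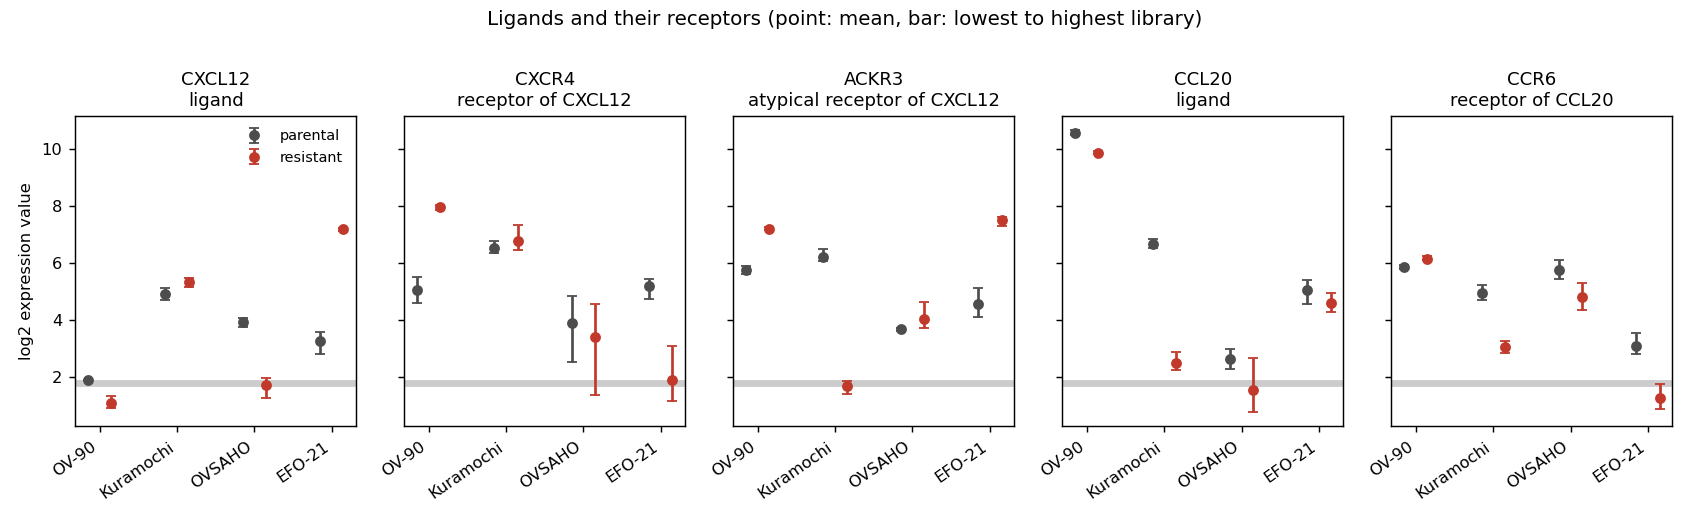
Panels show mean log2 expression values (vertical axis) of CXCL12, its receptors CXCR4 and ACKR3, CCL20 and its receptor CCR6 by line on the horizontal axis, parental in dark grey and resistant in red. Bars run from the lowest to the highest library and the grey band is the 10th percentile. In EFO-21 CXCL12 is at 3.27 and 7.17, CXCR4 at 5.17 and 1.89 and ACKR3 at 4.57 and 7.49, parental first, and in Kuramochi CCL20 is at 6.66 and 2.50 and CCR6 at 4.95 and 3.06.

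CCL20 (chr2:228670455-228682280, GRCh37, plus strand), which attracts CCR6-bearing lymphocytes and immature dendritic cells, had the largest fall of a member. In Kuramochi its log2 values went from 6.52, 6.65 and 6.82 to 2.25, 2.88 and 2.37. The difference was -4.16 (SE 0.221, adjusted p = 4.26e-05), or 17.9-fold lower. The resistant values, between percentiles 12.3 and 16.0 of their libraries, lay above but near the bottom, so the size of this fold is uncertain. In OV-90, where CCL20 was highest, it had 10.48 and 10.63 in parental and 9.86, 9.90 and 9.80 in resistant libraries. That difference of -0.70 had an adjusted p of 0.0105 and was 1.63-fold.

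In OVSAHO 2 resistant libraries had CCL20 values of 0.76 and 1.17, at the bottom, while library 21 had 2.66, within the parental values of 2.97, 2.27 and 2.61. The difference was -1.09 (adjusted p = 0.16), and -1.65 without library 21 (adjusted p = 0.0184), or -0.56 with low values raised. EFO-21 had overlapping groups with means of 5.06 and 4.60. The CCL20 change in Kuramochi differed from that in OV-90, OVSAHO and EFO-21, with adjusted p of 2.15e-05, 4.95e-05 and 5.23e-06.

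CCR6 was lower in the same line. It went from a mean log2 value of 4.95 to 3.06 in Kuramochi (adjusted p = 0.00089) and from 3.07 to 1.25, at the bottom, in EFO-21 (adjusted p = 0.00471). In OVSAHO it had means of 5.76 and 4.79 and in OV-90 5.85 and 6.14, neither called.

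CCL2 (chr17:32582293-32584227, GRCh37, plus strand), the monocyte attractant, did not reach 2-fold in any line. In Kuramochi the log2 values were 10.40, 10.55 and 10.53 in parental and 9.73, 9.62 and 9.80 in resistant libraries. All resistant values were lower, by a difference of -0.78 (SE 0.0714, adjusted p = 0.000325), or 1.72-fold. In OVSAHO the order was the opposite, with 8.24, 8.40 and 8.58 against 9.26, 9.24 and 9.33, a difference of 0.87 (SE 0.0888, adjusted p = 0.00138), or 1.83-fold. The CCL2 changes of Kuramochi and OVSAHO differed by -1.65 (SE 0.303, adjusted p = 0.000202).

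CCL2 had means of 9.12 and 8.80 in EFO-21, where the groups overlapped. In OV-90 it stayed near the bottom, at 2.45 and 2.00 in parental and 2.02, 1.42 and 2.75 in resistant libraries.

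CX3CL1 (chr16:57406389-57418956, GRCh37, plus strand), the membrane-anchored chemokine fractalkine, fell in OVSAHO. Its log2 values went from 7.23, 7.23 and 7.28 to 5.44, 5.36 and 6.03, a difference of -1.64 (SE 0.180, adjusted p = 0.00176), or 3.11-fold. The groups were well apart, although resistant library 21 was the nearest to the parental values, as it was for CCL20. In EFO-21, which had the highest level, the means were 9.46 and 9.40, with a 95% interval of the difference from -0.22 to 0.10. Kuramochi had means of 6.69 and 6.85 and OV-90 of 4.24 and 4.58, with overlapping groups. The OVSAHO change of CX3CL1 differed from those of OV-90, Kuramochi and EFO-21, with adjusted p of 0.000118, 6.7e-05 and 0.000449.

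Averaged over the 4 lines, with the line as an additive term, 2 of the 10 members were called, against 6.09% of all genes. Both had changes that differed between lines. This fit took the 23 libraries as its units, so its SE and adjusted p do not measure the spread between lines. They do not show that an average would hold in further lines. CXCL5 was higher by 1.21 (SE 0.342, adjusted p = 0.0104), an average over 3 lines with a rise and 1 with a fall. CCL20 had an average change of -1.65 (SE 0.372, adjusted p = 0.00222), and its difference was negative in all 4 lines. With low values raised to the 10th percentile 1 member was called, so at least 1 of these 2 calls depended on low values. The name of the member still called was not recorded. CXCL2 had an average change of -0.82 (adjusted p = 0.00123) and CXCL1 of -0.61 (adjusted p = 0.0164), both under 2-fold.

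The change differed between the 4 lines for 10 of the 10 members in limma's F-test, against 75.1% of all genes. Adjusted p for the difference ranged from 4.25e-11 for CXCL12 to 0.0358 for CXCL2. CXCL2 was the member with the smallest spread of change between lines, 1.15 on the log2 scale, and CXCL12 had the widest, 6.11. CXCL5 showed no difference of change among OV-90, Kuramochi and OVSAHO that passed the test (adjusted p of 0.747, 0.967 and 0.787 for the 3 pairs). Parental Kuramochi and OVSAHO were at the bottom for CXCL5, so these pairs cannot show that the 3 rises were of equal size. The CXCL5 change in EFO-21 differed from those of the 3 lines, with adjusted p of 2.63e-07, 2.46e-08 and 1.19e-07.

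Receptors and other ligands were taken from lists of the family. Of 18 chemokine receptors 8 were measured, and CXCR2, CXCR3, CCR2 and CX3CR1 were not analysed here. Their calls were 1 higher and 1 lower in OV-90, 0 and 2 in Kuramochi, 1 and 0 in OVSAHO, and 2 and 2 in EFO-21. CCR10, a receptor of CCL28, went from a mean log2 value of 6.15 to 7.38 in OVSAHO and from 5.24 to 6.77 in EFO-21. CCR7, a lymph node homing receptor, went from 3.73 to 1.10 in Kuramochi. The 4 atypical receptors, which bind chemokines without the usual signalling, had 1 higher and 1 lower in OV-90 and in Kuramochi, 0 in OVSAHO, and 2 higher and 1 lower in EFO-21.

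ACKR1 binds many of the inflammatory chemokines above. It went from a mean log2 value of 7.26 to 1.26, at the bottom, in OV-90 (adjusted p = 0.0107). In EFO-21 it went from 3.40 to 0.66, also at the bottom, and in Kuramochi from 1.02, at the bottom, to 5.10. ACKR4 went from 4.14 to 7.27 in EFO-21 (adjusted p = 3.13e-05).

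Of 34 other chemokine ligands 15 were measured. Calls were 0 higher and 4 lower in OV-90, 3 and 3 in Kuramochi, 2 and 7 in OVSAHO, and 0 and 5 in EFO-21, with median log2 changes of -0.94, -0.05, -0.07 and -0.99. CCL26, which attracts eosinophils, went from a mean log2 value of 14.32 to 11.06 in OV-90 (adjusted p = 0.00105), from 3.08 to 5.60 in Kuramochi and from 3.36 to 1.81 in OVSAHO. CXCL14 went from 0.57, at the bottom, to 4.39 in Kuramochi, from 2.75 to 4.47 in OVSAHO and from 6.98 to 2.47 in EFO-21. CXCL16, a membrane-bound ligand of CXCR6, had log2 changes of -1.27 in Kuramochi, -1.65 in OVSAHO and -1.16 in EFO-21, all called.

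In OVSAHO leukocyte markers were lower beside these ligands. Of 8 leukocyte markers 4 were lower in resistant OVSAHO, PTPRC, CD68, CD3E and LYZ. Their log2 values summed over the 8 markers were 28.4 to 35.5 in parental and 18.3 to 21.2 in resistant libraries. In parental OVSAHO 1 of the 8 was at the bottom in all libraries, and in resistant OVSAHO 4 were, PTPRC having a mean of 3.43 and 0.54. Their part in the OVSAHO ligand counts, and in the lower CXCL12 and CX3CL1 values, was not tested. Of the same 8, 0 were called in OV-90, 2 were higher and 1 lower in Kuramochi, and 1 was higher and 2 lower in EFO-21. In these lines the summed ranges, parental first, were 44.3 to 48.3 and 43.8 to 44.5 in OV-90, 17.8 to 27.2 and 22.4 to 22.8 in Kuramochi, and 30.8 to 32.2 and 28.2 to 29.2 in EFO-21.

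Fibroblast and epithelial markers also moved in some lines. CXCL12 is a known product of fibroblasts. In EFO-21, where CXCL12 rose, 0 of 6 fibroblast markers were called and 3 were at the bottom in all libraries before and after, with summed log2 values of 13.1 to 13.6 and 14.1 to 14.4. In OVSAHO, where CXCL12 fell, DCN and LUM were higher and COL1A1 and COL3A1 lower, with sums of 14.2 to 16.6 and 20.4 to 21.3. Kuramochi had 2 higher and 3 lower of the 6 and OV-90 had 0 called. Of 6 epithelial markers 4 were lower in Kuramochi, with sums of 45.9 to 47.7 and 33.5 to 34.5, and 4 in OVSAHO, with sums of 53.1 to 53.7 and 43.2 to 43.9. In EFO-21 CDH1 was higher and in OV-90 0 were called. EPCAM, an epithelial surface protein, went from a mean log2 value of 6.47 to 2.69 in Kuramochi and from 8.83 to 5.82 in OVSAHO. The part of these shifts in the member changes was not tested. Endothelial markers had 1 lower in OV-90, 1 higher and 2 lower in Kuramochi, 1 higher in OVSAHO and 1 lower in EFO-21, of 4. Mullerian markers had 0 called in OV-90, 3 lower in Kuramochi, 1 lower in OVSAHO and 0 in EFO-21.

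NF-kappaB and its targets were counted beside the members because of the stretch in their promoters. Of the 5 subunits, RELB was lower in Kuramochi (mean log2 values of 7.99 and 6.83, adjusted p = 0.000928) and NFKB1 in EFO-21 (6.43 and 5.15, adjusted p = 0.00013). No subunit was called in OV-90 or OVSAHO, where 0 of 5 passed. Of all genes, 7.11% were higher and 7.15% lower in EFO-21, and 11.8% and 10.6% in Kuramochi. Of 23 measured other targets, EFO-21 had 0 higher and 11 lower, with a median log2 change of -0.94. Another 12 were not called there, NFKBIA among them with a log2 change of 0.42. Kuramochi had 6 higher and 1 lower, with a median of 0.86. OV-90 had 3 higher and 1 lower, and OVSAHO 0 higher and 1 lower.

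The named targets in EFO-21 were lower together with CXCL1, CXCL2, CXCL5 and CXCL8. SAA2, an acute phase protein, went from a mean log2 value of 9.76 to 5.31, LCN2, which binds bacterial siderophores, from 13.34 to 9.37, TNF from 2.48 to 0.62, and IL1B, the interleukin-1 beta gene, from 7.55 to 6.10. LCN2 was called higher in OV-90, from 2.75 to 3.82 (adjusted p = 0.0333), and SAA2 lower in OVSAHO, from 4.68 to 3.68 (adjusted p = 0.0162). In Kuramochi IL1B went from 1.73 to 5.51 (adjusted p = 0.00114) and TNF from 4.66 to 0.77 (adjusted p = 4.33e-05), while CXCL1, CXCL3 and CXCL8 were not called there.

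Receptors and adaptors upstream were counted as well. Of 17, 1 was higher and 3 lower in OV-90, 5 and 2 in Kuramochi, 0 and 4 in OVSAHO, and 2 and 4 in EFO-21. IL1R1, the interleukin-1 receptor, had a log2 change of -3.59 in Kuramochi (adjusted p = 0.000105) and of -3.42 in EFO-21 (adjusted p = 7.24e-05). TLR4, the endotoxin receptor, went from a mean log2 value of 1.54, at the bottom, to 6.52 in Kuramochi. It went from 8.38 to 5.74 in OV-90 and from 2.58 to 0.02, at the bottom, in OVSAHO. IRAK2, a kinase downstream of both, had a log2 change of 2.01 in Kuramochi and of -2.46 in EFO-21. TNFRSF1B, a TNF receptor, had changes of 2.36 and 1.07 in the same lines.

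Enzymes that trim chemokines showed 3 higher and 1 lower of 8 in OV-90, 4 and 1 in Kuramochi, 0 in OVSAHO, and 1 and 1 in EFO-21. MMP1, a collagenase, went from a mean log2 value of 9.33 to 10.69 in OV-90, from 0.94 to 5.70 in Kuramochi and from 4.18 to 6.99 in EFO-21. MMP9, a gelatinase, went from 4.85 to 2.18 in OV-90 and from 6.80 to 3.74 in EFO-21. MMP7 went from 0.66 to 4.11 in OV-90 and from 3.22 to 4.36 in Kuramochi, and MMP2 from 7.93 to 9.72 in Kuramochi.

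As a description, the genes whose 8 group means were most like those of a member were sought among 16722 genes. The 8 points share their line in pairs. The closest were FJX1 for CCL2 (Pearson's r = 0.998), LYPD2 for CXCL5 (0.992), TAGLN3 for CXCL1 (0.990), MTHFS for CXCL3 (0.985), GOSR1 for CXCL8 (0.985), LINC03086 for CX3CL1 (0.983), LINC01605 for CCL20 (0.983), CCDC152 for CXCL10 (0.982), SPNS1 for CXCL2 (0.978) and UBE2D4 for CXCL12 (0.944). Among the members themselves the lowest correlation was between CXCL3 and CCL2 (-0.84), which are high and low in OV-90.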

How the data were processed

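RNA of the cultures was extracted, and the authors made stranded mRNA libraries (TruSeq), which they sequenced them as 150-bp pairs. Per the submitters' notes and the methods, reads were aligned to GRCh37/hg19, exons with few reads were dropped, a robust linear model gave a value per gene, and quantile normalization followed. The deposited values, taken as log2, cover 21658 genes in 23 libraries, and all 10 members carry the robust linear model value. No counts or depths were given, so precision rests on the spread between libraries, and normalization removes any shift shared by most genes. Columns carry library numbers (2 to 24) but no replicate numbers, and were assigned by line and phenotype. No column was left out (0 columns).

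Each line was fitted alone with limma (3.58.1, R 4.3.3; moderated by eBayes with a trend on mean expression, two-sided, no filter and no pseudocount), with Benjamini-Hochberg adjustment over all genes. Changed means an adjusted p under 0.05 and at least 2-fold. The average used line as an additive block, the difference between lines an F-test over 8 group means, and baseline the 11 parental libraries. The smallest exact permutation p is 0.1 for 3 against 3 and 0.2 for 2 against 3 libraries, so no exact test is given. On simulated data 92.5% to 97.5% of 200 genes changed by 2 (log2) per line were recovered, and 0% to 3.47% of the calls were unchanged genes. The changed genes were drawn only from those with a mean above the median, so the recovery does not cover members with low values. Members and lists were chosen with earlier results of these data known. All members are named, with at most 4 genes per list, those called in most lines and then those with the largest change. Gene symbols were matched by NCBI Gene ID for 95.8% of genes, and positions are GENCODE v44 lifted to GRCh37. Promoters are from RefSeq (GRCh38.p14), placed on GRCh37 by exact match of the whole sequence, and motifs were sought on both strands in Python 3.11.15. Alternatives were a joint fit, no trend, a filter on low values, recentring, low values raised to the 10th percentile, other fold thresholds and leaving out each library.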

Additional observations from a re-analysis of the deposited data

Results flagged for a closer look

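The change between resistant and parental cultures differed between the 4 lines for all 10 members in limma's F-test, a threshold that 75.1% of all genes passed. The spread between the highest and the lowest log2 change over the lines was 6.11 for CXCL12, 3.711 for CCL20, 3.446 for CXCL5, 2.744 for CXCL10 and 1.998 for CXCL1. It was 1.987 for CX3CL1, 1.962 for CXCL8, 1.674 for CXCL3, 1.651 for CCL2 and 1.15 for CXCL2. CXCL12 was called in opposite directions in OVSAHO and EFO-21, and CXCL5 in EFO-21 against the other 3 lines. No group had the 4 samples needed to test for a sample standing apart.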

How the results depend on the processing

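No paired analysis was possible because the columns of the table carry library numbers and not the replicate numbers of the labels. The joint fit, the fit without a trend and recentring moved no count of changed members by over 1.5 times. With genes of low mean left out, 2 members were counted in Kuramochi and 1 in OVSAHO, since 8 and 6 members were then tested. Without a fold threshold OVSAHO had 5. For the average over the lines the count was 1 with low values raised, 4 at 1.5-fold and 4 with no fold threshold.

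Leaving out a library gave 1 to 4 changed members in OV-90, with 1 without resistant library 13 or 15 and 2 without library 14. Leaving out a parental OV-90 library left 1 parental library, so the spread in those fits of that line came from its 3 resistant libraries alone, and the lone sample is assumed to vary like them. The count was then 4 either way. It gave 3 to 4 in Kuramochi and in OVSAHO and 4 to 5 in EFO-21. The count that differed between lines was 9 to 10, and that over pairs of parental lines 49 to 51.

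Some differences that were not called changed sign when a library was left out. CCL2 in OV-90 ranged over these fits from -0.51 to 0.16, CXCL10 in OV-90 from -0.063 to 0.73, CX3CL1 in Kuramochi from -0.0175 to 0.36, CXCL2 in OVSAHO from -0.29 to 0.37, CXCL10 in OVSAHO from -0.0391 to 0.36 and CXCL10 in EFO-21 from -0.071 to 0.72. No called member reversed in any alternative run. Without counts, neither a detection limit nor counting error could be given, and values at the bottom carry no measured fold.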
